A study of Homo sapiens with 2 samples.

Results

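The HOX cluster genes were taken as all genes whose symbol in the array annotation was HOXA, HOXB, HOXC or HOXD followed by a number. The rule returned 39 genes of the 17280 genes named on the arrays, 11 in the HOXA cluster, 10 in HOXB, 9 in HOXC and 9 in HOXD, which is the full human set. They carried 1749 of the 474411 genomic probes. The study asked where GATA1 sits near gene starts in Meg-01, a human megakaryoblastic leukemia cell line derived from a patient in blast crisis of chronic myeloid leukemia. Parental Meg-01 cells, non-treated, were the only cells used, and both pull-downs of each array came from them: GATA1 (C-20), a goat antibody, labelled with Cy5, and normal goat IgG, the control, labelled with Cy3. Amplified DNA of both was hybridized together to chIP1 and chIP2, a pair of promoter arrays with different probes. HOXA and HOXD lay on chIP1, with 20 of the genes, and HOXB and HOXC on chIP2, with 19. Each probe was therefore read in 1 hybridization, without a replicate and without a dye swap, so no difference below carries a test and antibody and dye cannot be told apart. A pull-down array holds no transcript levels, and the identity of the cells could not be checked by marker genes here.

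HOX genes encode homeodomain transcription factors that give cells their position along the body axis, and they lie side by side in the order in which they are used. Genes at the same place in different clusters descend from a common ancestor and form paralog groups. In blood formation, HOX genes are high in stem and progenitor cells and fall as cells mature, and HOXA9 with its cofactor MEIS1 is a known driver of acute leukemia. GATA1 is the zinc finger factor that megakaryocyte and red cell maturation require, and it binds DNA at GATA sequences.

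All values are log2 of the GATA1 signal over the IgG signal (IP/IgG) with the median of each array at 0. A window is the mean of 3 neighboring probes, none more than 1000 bp from the next. It was called for the IP side at 1 or above (2-fold) and for the IgG side at -1 or below. The spread of 1 control probe spotted 479 to 480 times per array was 0.04 (SD of the same log2 ratio), which covers spotting and scanning alone, against an SD of 0.97 over all probes of either array. Probes lay a median of 177 to 178 bp apart. The median mean signal was 543 to 544 in the IP channel and 412 to 440 in the IgG channel, against 340 to 342 and 303 for negative control spots, so that a typical probe was dim. Array positions are given as the files have them, on a genome build not given in the sources used here.

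Windows on both sides of the IgG control were frequent at the HOX genes. At least 1 IP-side window was found in 32 of the 39 genes (82.1%), beside a background of 57.1% of the 17054 genes with windows. An IgG-side window was found in 28 of the 39 (71.8%), beside 52.9%. Both kinds were found in 24 (61.5%), beside 31.3%. HOX genes are also covered by more windows than most genes, with a median of 43.0 (range 22 to 84) against 23.0 over all genes, which gives a gene more chances to hold a called window. Among genes with 30 to 60 windows, 21 of 26 HOX genes had an IP-side window beside 73.7% of 4801 genes, and 20 of 26 an IgG-side window beside 70.7%. The share of HOX genes with a window was thus near that of genes with like coverage on either side. The share with both kinds was not taken at like coverage. The highest window of a HOX gene had a median of 1.55 (range 0.58 to 2.74), against 1.09 over all genes. Within the range of 30 to 60 windows it was 1.71 for HOX genes and 1.31 for all.

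Counted by window, a share that does not grow with the coverage of a gene, 164 of the 1711 HOX windows (9.59%) passed 2-fold toward the IP, beside 7.62% over both arrays, and 125 (7.31%) passed it toward IgG, beside 9.65%. Of the called HOX windows 56.7% were on the IP side, against 44.1% of all called windows. Overlapping windows within 1000 bp of each other joined into 49 IP-side regions, 41 of them with at least 2 windows, and 38 IgG-side regions, 25 of them with at least 2 windows. The mean over all probes of a gene was close to 0, with a median of 0.09 over the HOX genes and 0.01 over all genes. It was above 0 in 27 and below 0 in 12.

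**Figure D1:**
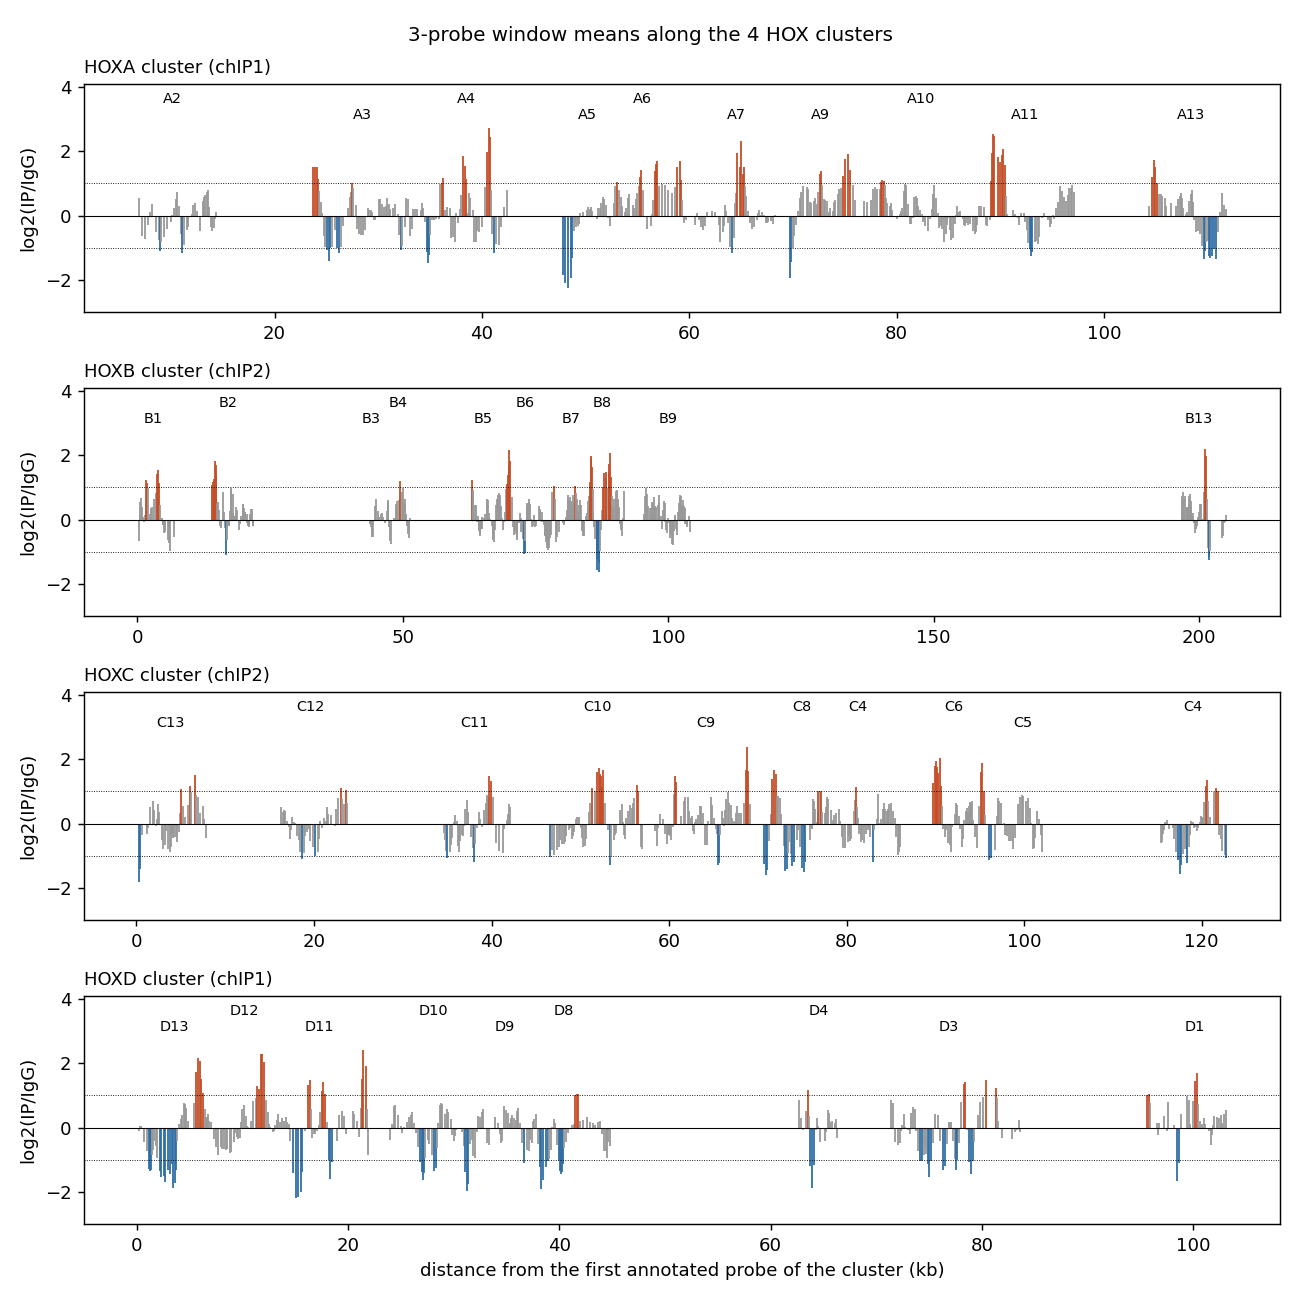
Mean log2(IP/IgG) of each 3-probe window (vertical axis) against distance in kb from the first annotated probe of the cluster (horizontal axis, a scale of its own per panel), for HOXA and HOXD on chIP1 and HOXB and HOXC on chIP2. Windows at 1 or above are red, at -1 or below blue and the others grey, gene names stand over the middle of their probes, and gaps have no probes or windows that are not drawn. The 58 blue windows of HOXD outnumber its 30 red ones, and HOXB has 9 blue windows.

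The 4 clusters leaned to different sides. HOXA, on chromosome 7 from 26906400 to 27018340, had 59 IP-side and 30 IgG-side windows of 513 (11.5% and 5.85%). HOXD, on chromosome 2 from 176777915 to 176881209 and read on the same array, had 30 and 58 of 374 (8.02% and 15.5%). Over the whole of chIP1 the shares were 7.98% and 9.71%. HOXA was thus above the array on the IP side and below it on the IgG side. HOXD was near the array on the IP side and above it on the IgG side. On chIP2, HOXB on chromosome 17 from 43960884 to 44166449 had 34 and 9 of 383 (8.88% and 2.35%). HOXC on chromosome 12 from 52613426 to 52736421 had 41 and 28 of 441 (9.30% and 6.35%), and the whole array 7.26% and 9.59%. IgG-side windows were thus scarce in HOXB, where 4 of 10 genes had one. In HOXA 8 of 11 genes did, in HOXC 8 of 9 and in HOXD 8 of 9. The share over all genes was 52.9%, and 70.7% over genes with 30 to 60 windows. HOXA and HOXB kept more IP-side than IgG-side windows, and HOXD fewer, under each of 13 other ways of processing. HOXC did not with single probes in place of windows, where it had 54 and 55. With background corrected by the normexp model in place of the scanner's subtraction it had 5 and 4, nearly even.

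**Figure D2:**
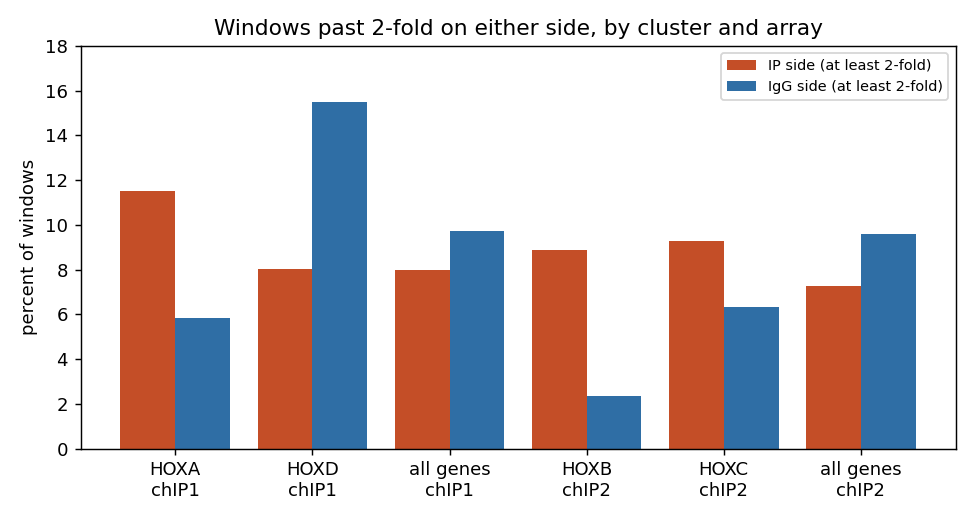
Percent of 3-probe windows past 2-fold (vertical axis) in each HOX cluster and over all windows of the same array (horizontal axis), red for the IP side and blue for the IgG side. The blue bar of HOXD (15.5%) is the tallest and that of HOXB (2.35%) the shortest, while the arrays as a whole stand at 9.71% and 9.59%.

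The brightness of the probes differed among the clusters. The median probe of HOXC was at the 36.7th percentile of its array, that of HOXD at 43.2, HOXA at 46.0 and HOXB at 52.7. Probes shorter than 60 bases, which the array design uses in part, made up 66.8% to 74.0% of the probes in the clusters against 51.4% and 62.3% on the arrays. When windows were split by brightness into 4 sets of equal size over each array, the dimmest set held IP-side calls in 16.3% of its HOX windows and IgG-side calls in 9.80%, beside 11.3% and 19.9% of all windows. In the brightest set the shares were 3.38% and 2.95%, beside 6.19% and 1.83%. IP-side windows of HOX genes were therefore most frequent where the signal was weakest, and their share in bright windows was below that of the arrays. The part of brightness and probe length in the shares was not tested.

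HOXA held the highest window of all HOX genes, upstream of HOXA4, a gene of anterior patterning. Its probes read 1.82, 3.40 and 2.99, a mean of 2.74, at 26946881 to 26947216 and 3446 bp upstream of the start. The IP signals were 1000, 1577 and 1414 against IgG signals of 283, 150 and 179. All 3 probes were far on the IP side. Farther upstream, 3960 bp from the start, a single IgG-side window was at -1.16. HOXA11, mutated in an inherited form of amegakaryocytic thrombocytopenia, read 2.75, 2.50 and 2.37, with a mean of 2.54 inside the gene 2376 bp past the start. These probes agreed closely, and 9 windows joined into a region of 1596 bp there. The highest mean over all probes was that of HOXA6, 0.60, with 9 IP-side windows, none on the IgG side and a highest window of 1.70.

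HOXA7, a gene active in immature blood cells, had a window of 2.31 at 1887 bp upstream, but its probes were spread widely, at 3.90, 0.45 and 2.58. The middle probe was bright, with an IP signal of 7464 against 5472, and the one at 3.90 was dim, with 1035 against 69.4. Spread of this size within a window shows how far single probes moved the means. HOXA9, the leukemia gene, had its highest window 3296 bp upstream, with probes at 1.81, 2.48 and 1.47 and a mean of 1.92. These probes were bright, at the 84.8th percentile of the array, with IP signals of 4744, 5683 and 3607 against 1353, 1024 and 1307. It was the brightest of the highest windows of the HOX genes. HOXA9 also had an IgG-side window of -1.93 inside the gene, 2250 bp past the start, with probes at -2.38, -1.91 and -1.49. HOXA10, which acts in megakaryocyte and myeloid growth, had 3 IP-side windows up to 1.10 and none on the IgG side.

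HOXA5, a regulator of lineage choice in progenitors, had both the smallest highest window of all HOX genes, 0.58, and the lowest window, -2.26. The probes of the lowest window read -1.91, -2.33 and -2.54, at 26954422 to 26955020 inside the gene and 1847 bp past the start. IgG signals there were 770, 938 and 1425 against IP signals of 205, 187 and 244. Its 5 IgG-side windows joined into 1 region of 1328 bp, and elsewhere the gene had no called window. HOXA2, which patterns the hindbrain, likewise had no IP-side window, with a highest of 0.72 and 2 IgG-side windows down to -1.15. These are values of genes taken by symbol. Counted by every listed accession, HOXA5 and HOXA3 had the same highest value as HOXA4, 2.74, and HOXA2 passed 2-fold too. HOXA13, the most posterior gene of the cluster, had windows of both kinds, from -1.36 to 1.71, the latter 0.87 with normexp.

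HOXB had its second highest window at a gene start. At HOXB6, a gene of erythroid progenitors, the 3 probes read 1.43, 2.70 and 2.38 over 24 to 275 bp upstream of the start, a mean of 2.17. IP signals were 1465, 2409 and 2898 against 540, 370 and 554, and 5 windows formed a region of 1204 bp. HOXB13, a posterior gene known from the prostate, lay apart from the rest of the cluster and had the highest HOXB window, 2.20, at 818 bp upstream. Its probes read 0.78, 2.77 and 3.05, so that 1 of the 3 stayed under 2-fold. An IgG-side window of -1.24 lay 1659 bp upstream of the same gene. HOXB8, which blocks myeloid differentiation when overexpressed, had the most IP-side windows of any HOX gene, 12, in a region inside it and another upstream. The upstream region held 8 windows over 1998 bp, and its highest window read 2.20, 2.14 and 1.84, a mean of 2.06. Between the 2 regions, 4 IgG-side windows over 1038 bp reached -1.62.

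HOXB4, known for expanding blood stem cells, had 1 IP-side window of 1.20 at 387 bp past the start, and HOXB7 had 1 of 1.04 at 113 bp. HOXB5, HOXB3 and HOXC9 stand on the study's own list of genes from its knockdown arrays. HOXB5 read 1.72, 1.17 and 0.81 in its highest window, a mean of 1.23 at 2145 bp past the start, and had no other called window. With normexp the highest windows of HOXB4, HOXB5 and HOXB7 were 0.89, 0.99 and 0.95, under 2-fold. HOXB3 read 1.10, 0.82 and -0.03, a mean of 0.63, and its lowest window was -0.55. It was 1 of 3 HOX genes without a window past 2-fold on either side, with HOXB9 and HOXC5. Counted by every listed accession, the highest windows of HOXB3 and HOXB9 were 1.47 and 2.06, and that of HOXC5 stayed at 0.88. HOXB9 at 0.99 and HOXB7 at 1.04 were the genes next to the 2-fold limit on either side, and the gap between them is about the size of the control probe SD.

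HOXC had its highest window at HOXC9, inside the gene 2062 bp past the start, with probes at 1.52, 2.82 and 2.83 and a mean of 2.39. The probes were very dim, at the 5.71st percentile of the array, with IP signals of 355, 326 and 225 against IgG signals of 124, 46.2 and 31.4. With the normexp correction the highest window of HOXC9 was 0.70. The same correction also ended the calls of HOXC4 (0.71), HOXC6 (0.98), HOXC11 (0.80), HOXC12 (0.90) and HOXC13 (0.43). Over all genes the share with an IP-side window was 33.1% with normexp, beside 57.1% without it, so that lost calls were not particular to these genes. HOXC6 had 10 IP-side windows, in a region of 7 windows 4561 bp upstream that reached 2.04 and in one at the start that reached 1.88 at 210 bp inside. HOXC10 had its highest window of 1.74 at 311 bp past the start, in a region of 7 windows over 1738 bp, and HOXC11 one of 1.47 at 14 bp upstream of the start. HOXC8 leaned the other way, with 10 IgG-side windows down to -1.58 against 5 on the IP side up to 1.68. The lowest HOXC window was that of HOXC13, -1.80 at 5171 bp upstream. It rested on probes that differed from each other by over 2 units, from -3.40 to -0.56.

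HOXD carried 10 regions on each side, and the longest were on the IgG side. The region with the most windows, 13 over 2886 bp, lay upstream of HOXD13, the limb gene at the posterior end, and reached -1.88. In that window the probes read -1.93, -1.17 and -2.52, with IgG signals of 879, 1487 and 1696 against 230, 658 and 295. Past the start of the same gene lay an IP-side region of 5 windows over 1042 bp, with probes of 2.07, 3.02 and 1.44 in its highest window and a mean of 2.18 at 671 bp. The sign turned over 1000 bp upstream of the start, and the windows from there to the start were above 0 but under 2-fold. HOXD12 had an IP-side region of 5 windows over 949 bp just upstream of its start and no IgG-side window. Its highest window read 1.59, 1.72 and 3.60, a mean of 2.30 at 347 bp upstream, the highest of any HOX gene within 500 bp of its start. HOXD11 had 8 windows on each side, from -2.18 at 4560 bp upstream to 2.42 at 1758 bp past the start. The probes of the latter were dim, at the 7.31st percentile, and read 1.71, 2.62 and 2.95.

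From HOXD10 to HOXD3 the calls were mainly on the IgG side. HOXD10, down-regulated in invasive tumors by a microRNA of its own cluster, had 9 IgG-side windows down to -1.96, and its highest window was 0.76. HOXD9 reached 0.66 and had 1 window on the IgG side. HOXD8 had 10 IgG-side windows in a region of 2560 bp that reached -1.89, and 3 IP-side windows near its start up to 1.06. These 3 windows shared 1 dim probe of 2.95, 410 bp upstream, with an IP signal of 700 against 90.4, and the other probes of the highest one read 0.20 and 0.02. HOXD3, an anterior gene, had 12 IgG-side windows down to -1.54, which joined over 5340 bp, the longest region of either side in the clusters. That region was not of one sign, since an IP-side region of 2 windows that reached 1.43 lay inside it. The gene had 4 IP-side windows in all, up to 1.47, and with normexp its highest window was 0.97. At HOXD4 the sign turned within the 3 probes on either side of the start. The probes at 356, 162 and 51 bp upstream read 0.61, 1.64 and 1.28, a mean of 1.18. Those at 70, 253 and 421 bp past the start read -1.79, -3.05 and -0.80, a mean of -1.88.

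HOXD12, HOXD8 and HOXD4 had an IP-side window within 500 bp of their start, and their promoters are shown for that reason. The calls at HOXD4 and HOXD8 did not hold under every way of processing. The highest window of HOXD4 was 0.71 with normexp, 0.62 in windows of 5 probes and 0.89 with the trend with distance removed. That of HOXD8 was 0.47, 0.77 and 0.88 in the same order, while HOXD12 stayed past 2-fold in all 3. The sequences are the 250 bases before the start on the gene's strand, 5′ to 3′, from RefSeq on GRCh38.p14, at chr2:176099545-176099794, chr2:176129455-176129704 and chr2:176151300-176151549. All are on the plus strand, with the core GATA or its reverse complement TATC in capitals.
HOXD12 promoter: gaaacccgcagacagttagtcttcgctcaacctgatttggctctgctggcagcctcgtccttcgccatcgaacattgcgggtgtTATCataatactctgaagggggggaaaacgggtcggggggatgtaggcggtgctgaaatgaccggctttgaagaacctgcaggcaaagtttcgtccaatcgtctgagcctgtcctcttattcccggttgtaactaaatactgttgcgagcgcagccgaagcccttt
HOXD8 promoter: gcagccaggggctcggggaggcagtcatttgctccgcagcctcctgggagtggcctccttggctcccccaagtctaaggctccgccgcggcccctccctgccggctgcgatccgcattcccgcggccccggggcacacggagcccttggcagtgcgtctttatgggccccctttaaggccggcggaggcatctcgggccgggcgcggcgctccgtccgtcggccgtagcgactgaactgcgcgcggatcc
HOXD4 promoter: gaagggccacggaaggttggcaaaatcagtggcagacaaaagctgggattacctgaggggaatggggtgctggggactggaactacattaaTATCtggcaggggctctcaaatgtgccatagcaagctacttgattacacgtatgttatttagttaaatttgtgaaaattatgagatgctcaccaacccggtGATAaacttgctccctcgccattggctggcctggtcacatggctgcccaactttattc
Within these 250 bases HOXD12 held 1 core, HOXD8 none and HOXD4 2, but the bases do not span the called windows. Probes of the highest window lay 516, 347 and 234 bp upstream at HOXD12 and 356, 162 and 51 bp at HOXD4. At HOXD8 they lay 410, 311 and 63 bp upstream, and the high one, 2.95 at 410 bp, is outside the bases shown. A core on either strand was found in 10 of the 27 HOX promoters in the RefSeq table (37.0%), which belong to 20 genes, and in 45.6% of all 35116 promoters. A longer form, the same core with A or T before it and A or G after it, was also searched on both strands. It was in 5 of the 27 (18.5%) and in 22.3% of all. A match is letters alone, and other genes with an IP-side window at the start are not shown. Of these, HOXB4, HOXB6, HOXB7, HOXC6, HOXC10, HOXC11 and HOXC13 had no promoter in the RefSeq table. HOXC4 had one there, without a core, but it is the same stretch as that listed for HOXC5. The array measures HOXC4 probes from more than 1 start, and this promoter was not matched to the start with the window. The start used by the array need not be that of RefSeq: the spacing from HOXD12 differed between them by 37 bp for HOXD8 and by 172 bp for HOXD4.

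**Figure D3:**
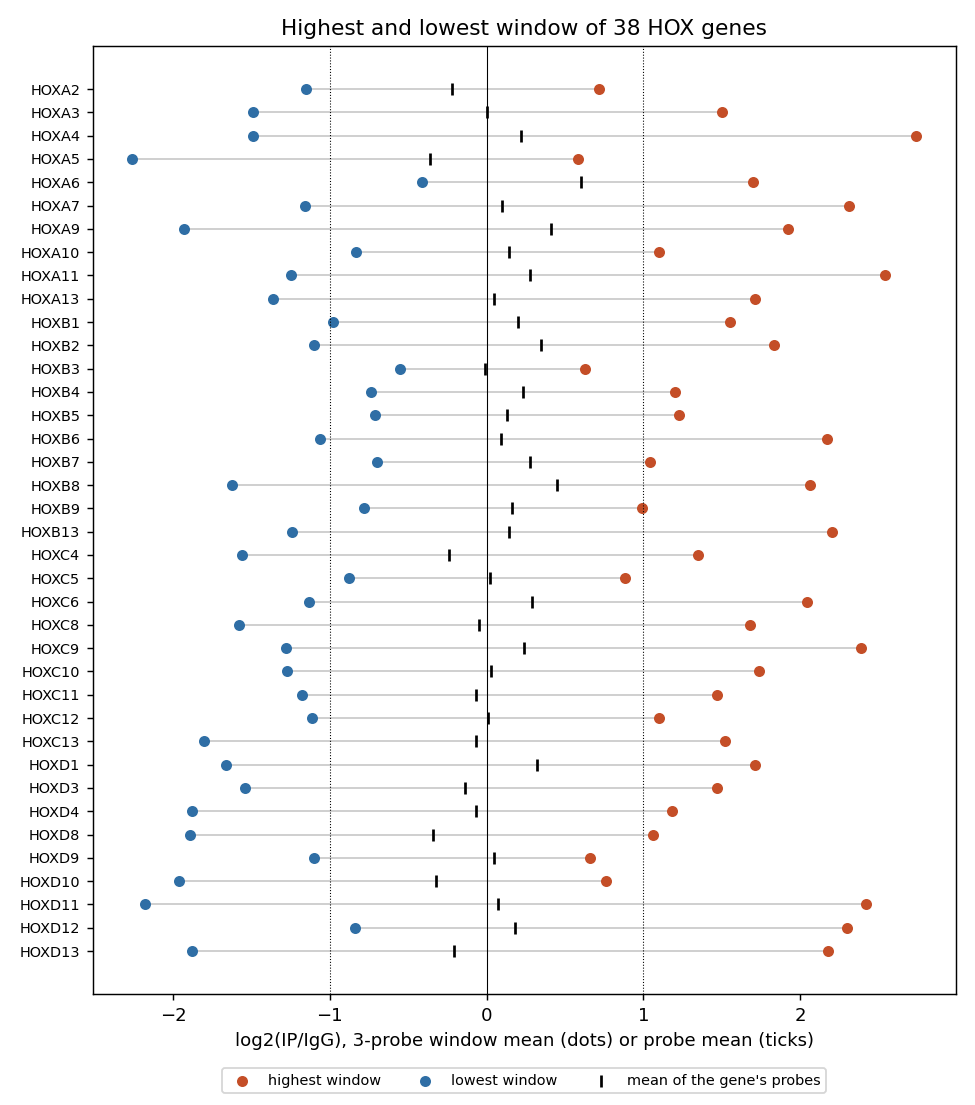
Highest 3-probe window (red), lowest window (blue) and mean over all probes (black tick) of 38 of the 39 HOX genes (vertical axis), on the log2(IP/IgG) scale (horizontal axis) with dotted lines at 2-fold. Highest windows reach from 0.58 (HOXA5) to 2.74 (HOXA4), and 24 genes extend past both dotted lines.

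Relative to the gene start, HOX windows differed from the arrays mainly away from it. Within 500 bp of a start IP-side calls made up 11.8% of 220 HOX windows and IgG-side calls 5.00%, beside 10.3% and 4.15% of all windows there. Farther away the shares were 9.30% and 7.68% of 1484 HOX windows, beside 6.99% and 10.9%. Counted by gene, 12 of 39 HOX genes had an IP-side window within 500 bp of their own start, beside a background of 24.7%, and 7 an IgG-side window, beside 9.35%. The highest window of a gene lay within 500 bp of its start in 12 cases and farther away in the other 27. By annotation 20 of the highest windows were upstream and 19 inside the gene. The places of the highest windows were not counted over all genes.

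Windows upstream and inside were called differently. Upstream of a start IP-side calls made up 8.33% and IgG-side calls 9.06% of 1093 HOX windows, beside 7.67% and 11.1% of all upstream windows. Inside, they made up 11.9% and 4.26% of 611, beside 7.59% and 8.22%. The clusters shared in this unequally. HOXC had 17 IP-side windows of 298 upstream (5.70%) and 24 of 141 inside, and HOXB had no IgG-side window among 165 inside windows. HOXD had 19.4% IgG-side windows upstream and 9.22% inside, and HOXA, at 11.2% and 12.2% on the IP side, differed little between them. Between 1000 and 2000 bp upstream the HOX windows held their largest IgG-side share, 13.6%, beside 10.8% of all windows at that distance.

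**Figure D4:**
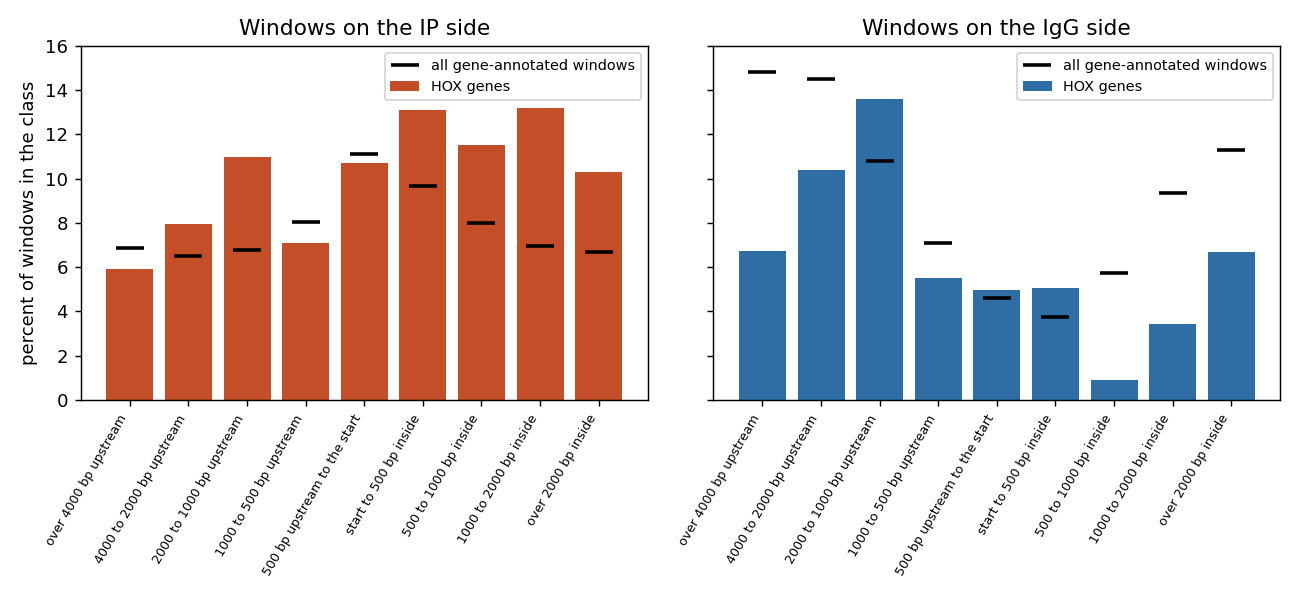
Percent of windows past 2-fold (vertical axis) by distance of the window center from the annotated start (horizontal axis), on the IP side (left) and the IgG side (right), for HOX genes (bars) and for all gene-annotated windows of both arrays (black lines). From the start inward, the IP-side bars (10.3% to 13.2%) lie above the lines (6.67% to 9.65%).

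Order along the cluster showed no single trend. In paralog groups 1 to 4, 10 of 12 genes had an IP-side window and 8 an IgG-side one, with a median highest window of 1.49. In groups 5 to 8 these were 9 and 7 of 11 with 1.68, and in groups 9 to 13 they were 13 and 13 of 16 with 1.73. The shares over all genes were 57.1% and 52.9%, and over genes with 30 to 60 windows 73.7% and 70.7%. All 4 genes of paralog group 13 had windows on both sides, beside 31.3% of all genes, with highest windows from 1.52 to 2.20. They are covered by 42 to 46 windows each, against a median of 23.0 over all genes. The share with both sides was not taken at like coverage. The 3 genes of paralog group 6 had high windows throughout, from 1.70 to 2.17, with 25 IP-side windows against 4 on the IgG side. Group 11, with highest windows from 1.47 to 2.54, had 19 and 13. The lowest were those of paralog group 5, from 0.58 to 1.23, with 1 IP-side window in all. Paralog group 8 held 20 IP-side windows against 24, of which HOXB8 gave 12 on the IP side and HOXD8 and HOXC8 10 each on the IgG side. Genes of a group were thus often unlike each other, as were HOXA4 at 2.74 and its paralogs HOXB4, HOXC4 and HOXD4 at 1.20, 1.35 and 1.18. With normexp these 4 values were 1.58, 0.89, 0.71 and 0.71 in the same order.

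**Figure D5:**
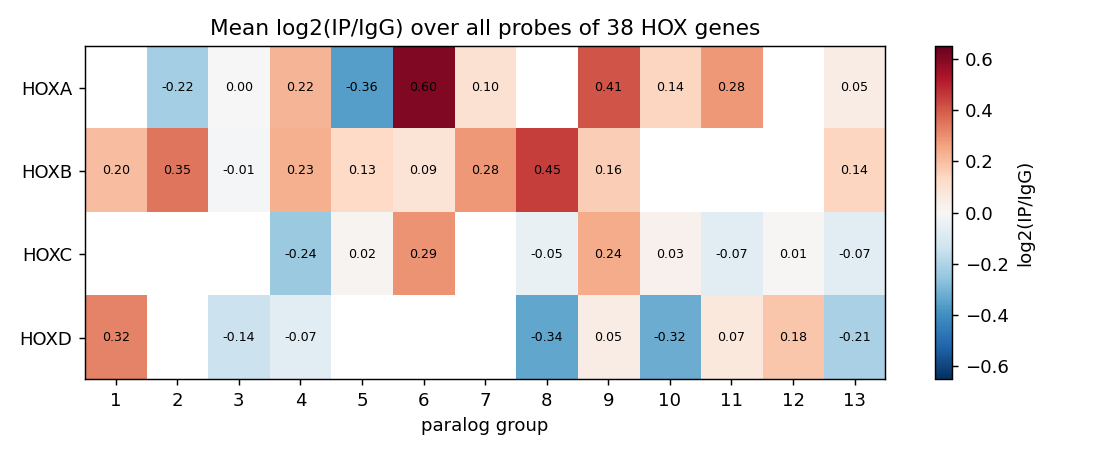
Mean log2(IP/IgG) over all probes of 38 HOX genes, by cluster (vertical axis) and paralog group (horizontal axis), with red above 0, blue below 0 and blank where no gene exists or none is drawn. The values reach from -0.36 (HOXA5) to 0.60 (HOXA6), and HOXB is above 0 in every gene but HOXB3 (-0.01).

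The clusters also hold microRNA genes, short RNAs that silence messages which pair with their seed. Mature 5p sequences from RefSeq (GRCh38.p14) are shown 5′ to 3′ for those named by the arrays, except miR-10b, whose 5p form was missing there. The seed, bases 2 to 8, is in capitals, because members of different clusters share one. miR-196b-5p lies at chr7:27169528-27169549 and miR-10a-5p at chr17:48579904-48579926, both on the minus strand, and miR-196a-5p is made from genes in HOXC, at chr12:53991762-53991783 on the plus strand, and in HOXB, at chr17:48632532-48632553 on the minus strand.
miR-196b-5p: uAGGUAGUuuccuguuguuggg
miR-196a-5p: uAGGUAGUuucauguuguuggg
miR-10a-5p: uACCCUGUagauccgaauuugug
The miR-196 genes, which share the seed AGGUAGU and target HOX messages, differed from each other on the arrays. Probes annotated to mir-196b, between HOXA9 and HOXA10, gave 6 IP-side windows of 43 and none on the IgG side, and the highest, 1.92, was the window described at HOXA9. Those of mir-196a-2 in HOXC gave 3 IP-side and 2 IgG-side windows of 74, up to 1.47. The 67 windows of mir-196a-1 in HOXB gave no call on either side and lay between -0.92 and 0.78. The miR-10 genes lie near HOXB4 and HOXD4. For mir-10a there were 3 IP-side windows and 1 IgG-side window of 48, up to 1.47, and for mir-10b 1 and 5 of 53, from -1.51 to 1.18. The difference between the miR-10 genes ran the same way as that between their clusters, HOXB and HOXD. The highest mir-10b window is the one described at HOXD4, while that of mir-10a lies outside the regions counted for HOXB.

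Genes that work with the HOX genes were counted in the same way, and their shares are to be read against the 57.1% and 52.9% of all genes. Of the TALE cofactors, which bind DNA together with HOX proteins, 5 of 8 genes with windows had an IP-side window and 4 an IgG-side one, with a median highest window of 1.13. MEIS1, the partner of HOXA9, had the highest of these at 3.24, above every HOX gene, and MEIS3 the lowest at 0.72. Of the upstream regulators of HOX genes (CDX factors, MLL and Polycomb proteins), 6 of 11 had an IP-side window and 6 an IgG-side one, with a median highest of 1.27. CDX4, which acts on HOX genes in early blood formation, reached 2.41, and SUZ12, with 4 windows in all, 0.15. Of the genes next to the clusters, 6 of 10 had an IP-side and 7 an IgG-side window, with a median of 1.24. MTX2, beside HOXD, reached 2.52 and EVX1, beside HOXA, 0.50. The medians of the 3 lists, 1.13 to 1.27, were between those of all genes (1.09) and of the HOX genes (1.55). The lists were not matched for coverage, and all genes with 30 to 60 windows had a median of 1.31.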

How the data were processed

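DNA pulled down with GATA1 or IgG antibody from Meg-01 cells was amplified, labelled and hybridized by the authors to 2 Agilent promoter arrays. The deposited scanner files, from Agilent Feature Extraction 9.5.3.1, hold processed intensity values of both channels, background-subtracted and dye-normalized, and p-values of the scanner's error model. The deposited series table holds log10 ratios equal to the scanner's own at every spot. Genome build: not given in the sources used here. The study's peaks came from other software.

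Here log2(IP/IgG) of the processed signals was centered on each array's median, after dropping flagged probes and probes dim in both channels (all 1749 HOX probes were kept), and averaged over 3 adjacent probes with Python 3.11.15, numpy 2.4.6 and pandas 2.3.3. The window step was tested on simulated data. Alternatives used limma 3.58.1 in R 4.3.3. chIP1 and chIP2 count as 1 sample each, and precision is limited by having 1 array of each kind.

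Named genes were the highest window of each cluster, the 10 highest, the 5 smallest highest and 5 lowest windows, those nearest 2-fold, HOXB3, HOXB5, HOXC9 and the extremes of each other list; the remaining HOX genes named in the text were added after their values were seen. The members, lists and rules were chosen with earlier results of these data known. 1 member is counted in the totals but is not reported here by itself and is left out of the plots.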

Additional observations from a re-analysis of the deposited data

How the results depend on the processing

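The values reported were 32 HOX genes with an IP-side window, 28 with an IgG-side window, 164 IP-side and 125 IgG-side windows and a median highest window of 1.55. Loess on intensity gave a median of 1.66, and removing the trend with distance from the start gave 1.61. Normexp background correction gave 17 and 13 genes, 58 and 31 windows and a median of 0.97, beside 33.1% and 23.9% of all genes and 3.25% and 2.50% of all windows. Single probes gave 190 IgG-side calls, beside 14.4% of all probes, and a median of 2.40. Windows of 5 probes gave 18 genes and 75 windows on the IgG side, beside 33.5% of all genes and 6.97% of all windows, and a median of 1.19. A limit of 1.5-fold gave 395 and 286 windows, beside 19.3% and 21.0% of all windows. At 3-fold there were 19 and 10 genes, beside 20.6% and 22.3% of all genes, and 59 and 20 windows, beside 1.79% and 2.74%. The scanner's error model called 300 and 246 windows, beside 15.0% and 17.4%. Counting genes by every listed accession, chosen after seeing the data, gave a median of 1.83. An IP-side window was then found in 38 HOX genes and an IgG-side one in 37, with other genes still taken by symbol. This way of counting moved the highest windows of 6 genes past 2-fold: HOXA2, HOXA5, HOXB3, HOXB9, HOXD9 and HOXD10. Other counts stayed within 1.5 times the reported ones. The side of 2-fold on which a gene's highest window fell was unchanged in 352 of 390 values over genes and settings, and 15 of the 38 changes came with normexp. For settings other than a changed limit, window or gene assignment, the cause was not tested. A typical probe was dim, with a median signal of 543 to 544 in the IP channel against 340 to 342 for negative control spots. This limits ratios of dim probes. No paired analysis was possible because chIP1 and chIP2 carry different probes and were hybridized 1 time each. No library could be left out for the same reason.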
